A study of Mus musculus with 64 samples.

Results

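Myelin and mature oligodendrocyte genes were followed in the striatum of mice that differ at Cyfip2, using 28 genes listed by name and found in the count tables through their Entrez identifiers. All 28 had a row among the 27179 identifiers of the tables, and all 28 passed the filter on low counts that left 16702 genes for testing. Striatal RNA was sequenced from 32 mice on a C57BL/6NJ background. The 16 N/- mice carried the N allele of Cyfip2 with 1 null allele and are labelled resistant to binge eating, and the 16 N/N mice carried the N allele on both chromosomes and are labelled prone to it. Each genotype had 8 males and 8 females. All were 82 to 84 days old, and the punches were taken on Day 24, directly after 5 min on an elevated plus maze. The series text gives 8 mice per genotype where the labels of the samples, which were followed here, give 16. The labels name no diet group and do not say whether mice came from separate litters, so the p-values measure the spread between these mice.

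Oligodendrocytes are the glial cells that wrap axons of the central nervous system in myelin, a multilayered membrane rich in galactolipid and cholesterol and held compact by a small set of abundant proteins. They mature from precursors under the transcription factors Sox10 and Myrf, which switch on the genes for these proteins and lipids. In the striatum the myelinated axons run in bundles of the internal capsule between the neurons, so a punch holds oligodendrocytes beside projection neurons.

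The 2 sequencing runs of each mouse were summed, which gave 28.8 to 33.8 M counts per mouse (M, mega counts; median 31.8 M). Levels are counts of a gene per mega counts of its library (CPM), scaled between libraries. Cyfip2, the gene that defines the genotypes, averaged 595.9 ± 43.1 CPM in N/- mice and 1070 ± 97.4 CPM in N/N mice (SD, n = 16 each), with no overlap between the highest N/- mouse at 647.9 CPM and the lowest N/N mouse at 927.6 CPM. The lanes in the labels split the mice into 2 batches, B with 6 N/- and 10 N/N mice and A with 10 N/- and 6 N/N mice, and no cage was split between them. Mouse 3, an N/N mouse labelled female, had 36 Xist counts and 31 Ddx3y counts, where the other 15 females had 27239 to 48029 Xist counts. Its Xist lay in the range of the males, 30 to 598 counts. Its Ddx3y lay in the range of the females, 2 to 64 counts, where males had 2200 to 3050. Results were therefore also computed without mouse 3, and no member passed the test with or without this mouse. The striatal marker Ppp1r1b was present in all mice, at 901.7 to 1962 CPM in N/- mice and 1399 to 2129 CPM in N/N mice.

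Taking Mbp, Mag, Mog, Mobp, Opalin, Ermn and Cldn11 as defining markers of mature oligodendrocytes, all were detected in every mouse. Among these 7 the lowest count in any mouse was 655, for Opalin, and over all 28 members it was 179, for Nkx6-2. To compare genes with each other, CPM was divided by the exon length in kilobases (RPKM, with lengths from an annotation that may differ from the one used for counting). On this length-corrected scale the members spanned 7.05 to 557 RPKM, with a median of 43.6 RPKM. The members lie on 15 chromosomes.

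Genes of compact myelin and its channels lay in the upper part of this order. Mbp, whose product glues the inner faces of the membrane together, had the highest level at 557 ± 100 RPKM (SD over 32 mice). Cnp, a phosphodiesterase that keeps cytoplasmic channels through myelin open, followed at 232 ± 37.6 RPKM, outside the spread of Mbp. Mal, a proteolipid that sorts membrane cargo, stood at 149 RPKM. Mobp, a basic protein of compact myelin, stood at 94.9 RPKM.

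Adhesion and junction genes were spread over the order. Mag (Entrez 17136, chr7:30899175-30914922), the adhesion molecule on the membrane that faces the axon, averaged 112 RPKM, and Cldn11, the claudin of the radial tight junctions, 108 RPKM. These neighbours lay within their own spread, with SDs over mice of 17.6% of the mean for Mag and 18.4% for Cldn11. Mog (Entrez 17441, chr17:37010740-37023398), a glycoprotein of the outermost lamella, averaged 61.2 RPKM and the tetraspanin gene Tspan2 49.2 RPKM. Opalin, a transmembrane glycoprotein, had 18.95 RPKM, Hapln2 (Entrez 73940, chr3:88020558-88027511), a link protein of the matrix at nodes of Ranvier, 17.5 RPKM, and the gap junction gene Gjb1 12.9 RPKM.

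Among enzymes, Enpp2, which makes the signalling lipid lysophosphatidic acid, reached 72.4 RPKM, and Qdpr, which recycles tetrahydrobiopterin, 67.5 RPKM. The galactolipid genes were close to each other, with Fa2h, which hydroxylates the fatty acids of these lipids, at 26.8 RPKM and Ugt8a, which adds the galactose, at 25.8 RPKM. Aspa, which frees acetate from N-acetylaspartate, had 17.5 RPKM. The transcription factors were in the lower part of the order, with Sox10 at 23.5 RPKM, Myrf at 17.3 RPKM and Nkx6-2, a homeodomain factor, lowest of all at 7.05 RPKM.

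The remaining genes covered a broad range. Trf, the iron carrier transferrin, had 158 RPKM, Plekhb1, a membrane protein with a pleckstrin homology domain, 145 RPKM, and Bcas1, a cytoplasmic protein of myelinating cells, 84.0 RPKM. Cryab, a small heat shock protein, had 76.1 RPKM, the lipocalin gene Apod 37.9 RPKM and Ermn, a cytoskeletal protein of late maturation, 32.9 RPKM. The receptor gene Gpr37, whose loss in mice advances oligodendrocyte maturation, had 16.8 RPKM, Lpar1, a receptor for the product of Enpp2, 14.7 RPKM, and the phosphatase inhibitor gene Ppp1r14a 8.28 RPKM.

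Because Sox10 and Myrf act on many of these genes, the 250 bases upstream of the annotated starts were searched for their motifs, in RefSeq promoter windows of GRCm38.p6. The table held 29 windows for 20 of the members, with several windows of 1 gene overlapping. Mag is shown because it serves below as the gene to which the others are compared, Mobp for its repeated motif, Mog as a surface protein with another variant, and Hapln2 as the member that followed the others least. Capitals mark matches on either strand. The Sox motif was searched as ACAAAG and, in a close variant, as ACAATG. The Myrf motif was searched as CTGGCAC and, in its other form, as CTGGTAC.

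Mag, chr7:30914923-30915172, minus strand: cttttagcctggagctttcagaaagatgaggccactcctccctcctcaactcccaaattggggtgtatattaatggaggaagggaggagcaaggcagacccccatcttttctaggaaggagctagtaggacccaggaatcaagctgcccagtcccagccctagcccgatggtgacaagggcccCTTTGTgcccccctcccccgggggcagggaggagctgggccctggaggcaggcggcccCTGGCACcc
Mobp, chr9:120149492-120149741, plus strand: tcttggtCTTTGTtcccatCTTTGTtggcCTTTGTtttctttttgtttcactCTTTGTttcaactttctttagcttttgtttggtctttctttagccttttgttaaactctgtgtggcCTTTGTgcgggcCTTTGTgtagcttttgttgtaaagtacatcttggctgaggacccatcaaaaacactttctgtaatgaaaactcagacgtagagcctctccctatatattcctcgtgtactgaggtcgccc
Mog, chr17:37023399-37023648, minus strand: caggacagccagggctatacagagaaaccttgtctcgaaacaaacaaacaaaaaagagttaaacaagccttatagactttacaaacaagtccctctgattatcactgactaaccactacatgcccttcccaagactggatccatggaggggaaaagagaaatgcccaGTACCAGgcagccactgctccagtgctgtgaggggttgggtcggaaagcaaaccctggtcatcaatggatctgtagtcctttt
Hapln2, chr3:88027512-88027761, minus strand: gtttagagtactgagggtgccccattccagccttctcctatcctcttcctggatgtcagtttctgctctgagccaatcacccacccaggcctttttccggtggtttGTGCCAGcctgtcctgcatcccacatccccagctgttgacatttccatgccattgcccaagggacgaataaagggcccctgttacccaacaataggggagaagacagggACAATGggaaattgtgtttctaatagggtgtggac

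The letters ACAAAG stood in 12 of the 29 windows of members (41.4%), against 16.5% of all 32851 windows of this length, and the window of Mobp alone held 6 copies. The variant ACAATG stood in 4 of 29 (13.8%), against 10.7% of all windows. Either form of the Sox motif stood in 14 of 29 (48.3%), against 25.2% of all windows. CTGGCAC, letters reported for Myrf in rat oligodendrocytes, stood in 5 of 29 windows of members (17.2%), against 4.19% of all windows. The other form was found in Mog, 1 of 29 (3.45%), against 1.83% of all windows. In the windows of members, no match of one motif overlapped a match of another. Overlapping windows of Mag held the same CTGGCAC and the same ACAAAG, so a site could count more than once. By gene, ACAAAG stood in 9 of 20 members, either Sox form in 11 and CTGGCAC in 4. Shares by gene were not computed for all genes. These counts describe letters and do not show that a factor binds there.

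All 28 genes varied between mice by similar amounts and mostly together. The SD over the 32 mice was 14.4% to 22.5% of the mean (median 16.9%), and the highest mouse exceeded the lowest by 1.63-fold for Apod to 2.49-fold for Opalin. The SD between mice on the log2 scale was 0.20 to 0.32, where the SD between the 2 runs of a mouse was 0.007 for Mbp to 0.17 for Nkx6-2. The spread between mice was therefore 1.91 to 36.8 times the spread between runs, with a median of 6.25 times.

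**Figure D1:**
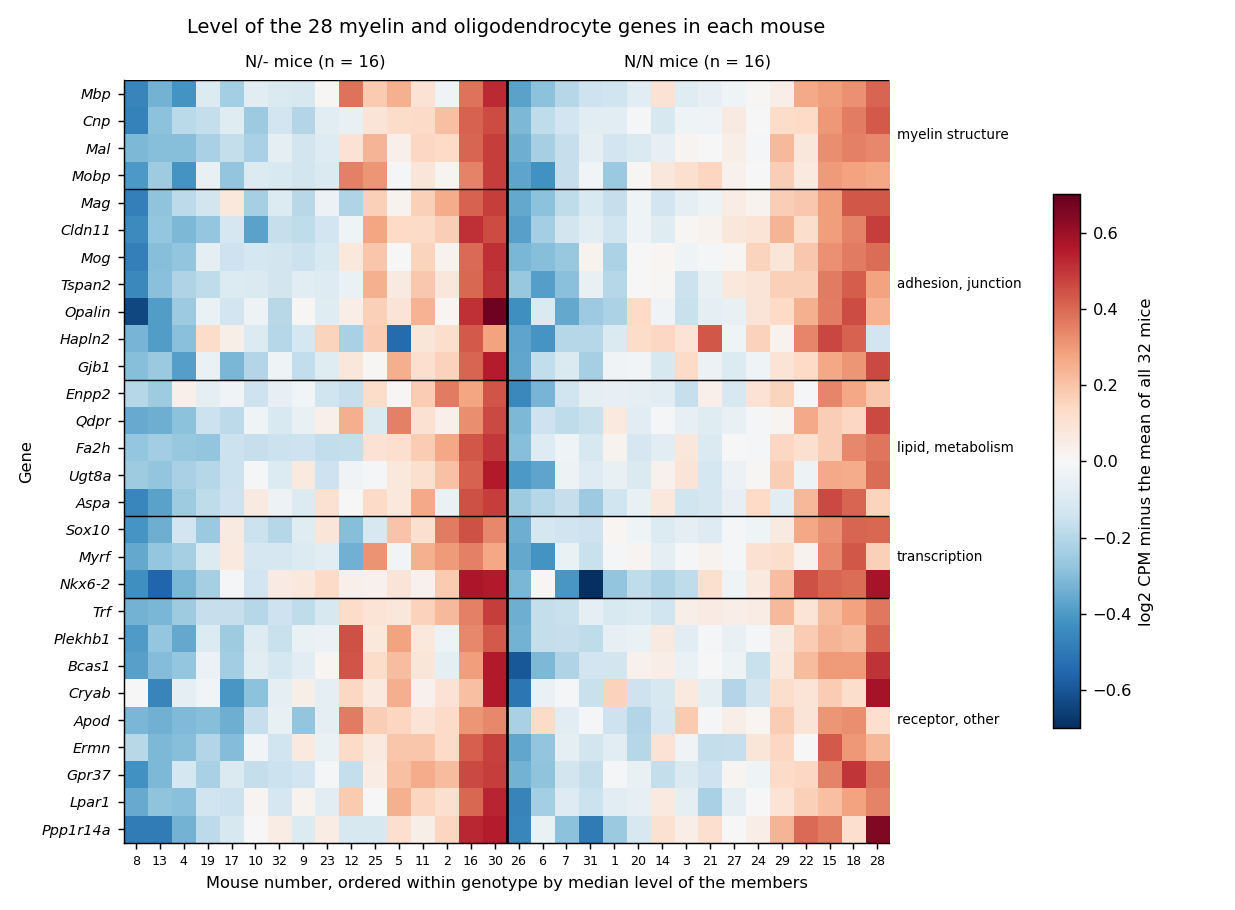
Level of each of the 28 genes (rows, grouped by role) in each of the 32 mice (columns, N/- left and N/N right, ordered within genotype by median level), as log2 CPM minus the mean of all mice. In 18 of 32 columns at least 25 genes lie on the same side of their mean, with mice 8 and 13 (N/-) and 26 (N/N) low and mice 16 and 30 (N/-) and 28 (N/N) high.

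Each mouse was summarised by the median over the 28 genes of its log2 CPM minus the mean of all mice. The highest was mouse 30, an N/- female at 0.49 (1.40 times the mean), which was the highest of all mice for 18 of the 28 genes. It was followed by mouse 16, an N/- male at 0.41, and mouse 28, an N/N female at 0.38. The lowest were mouse 8, an N/- male at -0.39 (0.765 times the mean) and lowest of all for 12 genes, and mouse 26, an N/N male at -0.36 and lowest for 9 genes. Both ends of the range thus held mice of both genotypes. In 18 of 32 mice at least 25 of the 28 genes lay on the same side of their mean, all 28 above it in 5 mice and all 28 below it in 3. In bulk samples, fewer oligodendrocytes in a punch and less RNA per oligodendrocyte cannot be told apart.

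Some of the extreme mice shared a cage. Mice 28, 29 and 30 were housed together and had medians of 0.38, 0.13 and 0.49, and cage mates 15 (N/N) and 16 (N/-) had 0.31 and 0.41. Other cage mates lay far apart, with mouse 17 (N/-) at -0.15 beside mouse 18 (N/N) at 0.33. The correlation of log2 levels within cages, estimated gene by gene with limma, had a median of 0.37 over the members (0.21 for Mobp to 0.63), and a median of 0.22 over all 16702 genes (quartiles -0.03 and 0.43). The 32 mice came from 20 cages, several of which held a single mouse and so add nothing to this correlation.

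No difference between the genotypes was detected in these genes. In the quasi-likelihood test of edgeR, adjusted by Benjamini and Hochberg over all genes, 0 of the 28 members passed the threshold of 0.05 between N/- and N/N mice, where 2 of 16702 genes did (0.012%). No member reached an unadjusted p under 0.05 either, against 1041 of all genes, and DESeq2 and limma also called 0 members. The log2 fold changes of the members were between -0.06 and 0.06, with 17 of 28 above 0 (11 without the batch term) and a median of 0.006, beside a median of -0.004 over all genes. Of all genes, 47.3% were above 0. The members vary together, so counts of members above 0 are not counts of separate results, here and below.

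Among structural and adhesion genes the groups lay over each other. Mbp had 3234, 4295 and 6387 CPM (lowest, median and highest) in N/- mice and 3432, 4322 and 5904 CPM in N/N mice, a log2 fold change of 0.02 (SE 0.09, adjusted p = 0.983). Mag had 193.5, 257.6 and 377.2 CPM in N/- mice and 210.7, 264.0 and 365.2 CPM in N/N mice, a log2 fold change of 0.02 (SE 0.09, adjusted p = 0.99). Both genes had their lowest and their highest value in N/- mice, so the N/N range lay inside the N/- range. Mag had a lower median in N/- mice beside a fold change above 0 because the fit adjusts for batch and sex; without the batch term its log2 fold change was -0.03. Cnp averaged 537.6 ± 97.6 CPM in N/- mice and 557.4 ± 80.5 CPM in N/N mice, and Mog 102.5 ± 18.7 CPM and 106.0 ± 16.5 CPM in the same groups (SD, n = 16 each). Hapln2, with the lowest of all 28 log2 fold changes at -0.06 (SE 0.09, adjusted p = 0.936), had 20.3, 28.9 and 39.6 CPM in N/- mice and 22.1, 30.7 and 40.7 CPM in N/N mice.

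The groups overlapped among lipid enzymes and transcription factors too. Enpp2 had the highest log2 fold change at 0.06 (SE 0.07, adjusted p = 0.92), with 201.5, 236.3 and 325.4 CPM in N/- mice and 175.4, 229.8 and 304.0 CPM in N/N mice. Ugt8a averaged 107.7 ± 19.1 CPM in N/- mice and 107.1 ± 15.7 CPM in N/N mice. For Sox10 the averages were 64.3 ± 12.1 CPM in N/- mice and 66.2 ± 10.3 CPM in N/N mice, and for Myrf 97.4 ± 16.5 CPM in N/- mice and 98.5 ± 14.7 CPM in N/N mice. Apod, at 77.0 ± 14.1 CPM in N/- mice and 80.3 ± 9.39 CPM in N/N mice, had a log2 fold change of -0.06 (SE 0.08, adjusted p = 0.926). The ranges of N/- and N/N mice overlapped for all 28 genes, as did those of males and females. This is what nearly all genes showed, since 1 of 16702 had ranges that did not overlap between genotypes (0.00599%) and 5 between sexes (0.0299%). Summed over the 28 genes, the share of all counts was 0.920% ± 0.169 in N/- mice and 0.922% ± 0.137 in N/N mice.

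The 95% intervals of the 28 fold changes together reached from 0.839-fold to 1.21-fold, so a change in any member beyond these bounds lay outside its interval. Within batch A the median log2 fold change of the members was 0.04 with 24 of 28 above 0, within batch B it was 0.0015 with 15 above 0, and 0 members passed in either batch. With cage as a block over the 21 mice whose cages held both genotypes, 4 of 28 were above 0, with a median of -0.02 and 0 members past the threshold. Of all genes, 8455 of 17020 were above 0 in batch A, 8038 of 16904 in batch B and 7742 of 16863 with the cage block. Under the alternatives run, adjusted p-values of members were 0.739 to 1.

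Other markers in the punches leaned with genotype without passing the test. The list of cortical glutamatergic neuron genes had 14 of 16 members with a log2 fold change above 0, a median of 0.30 and a summed level of 805.5 to 2564 CPM in N/- mice and 865.7 to 1539 CPM in N/N mice. The list of striatal projection neuron genes had 0 of 18 above 0, a median of -0.15 and a summed level of 8636 to 17030 CPM in N/- mice and 12180 to 17770 CPM in N/N mice. Endothelial and mural genes had 0 of 12 above 0 (median -0.07), microglia genes 0 of 12 (median -0.05) and blood genes 0 of 4 (median -0.31). The unadjusted p was under 0.05 for 6 cortical, 7 striatal, 4 endothelial and mural, 3 blood and 0 microglia genes. Over all genes, 47.3% had a log2 fold change above 0 and 6.23% an unadjusted p under 0.05. The blood genes had low means, 0.378 CPM for Hbb-bs to 9.04 CPM for Hba-a2. How far genes of a list vary together was not tested. In none of these lists did a gene pass after adjustment over all genes. Their part in the myelin values was not tested beyond the cortical list. With the cortical list's mean level as a covariate the myelin members had a median of 0.03, with 21 of 28 above 0 and 0 past the threshold. Of all 16702 genes, 8257 were above 0 in that fit.

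**Figure D2:**
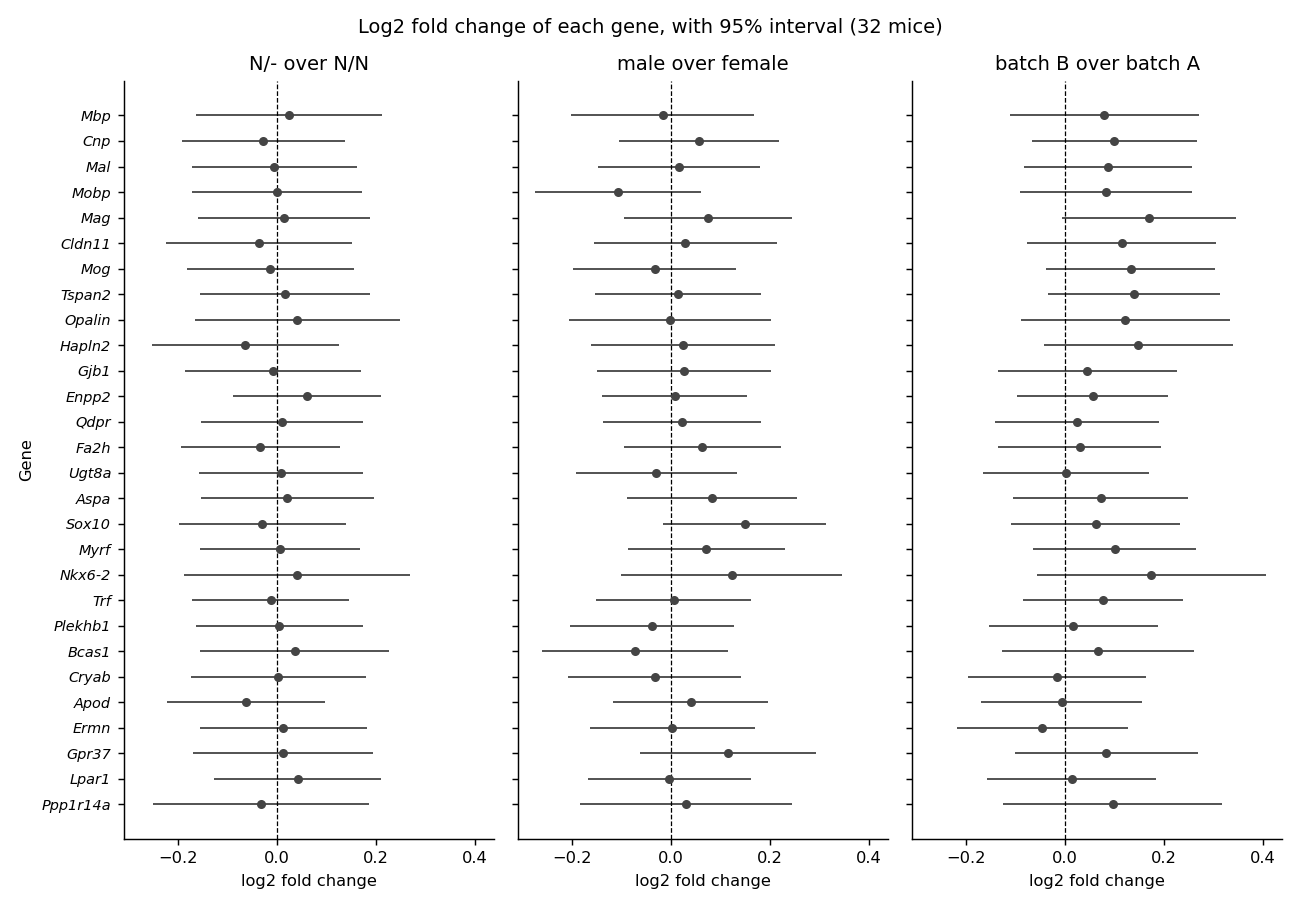
Log2 fold change of each of the 28 genes (rows) with its 95% interval, for N/- over N/N, male over female and batch B over batch A, from the fit over all 32 mice. All intervals include 0, and the genotype estimates keep between -0.06 and 0.06.

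No difference between the sexes was detected either. With males over females, 0 of 28 members passed the edgeR test, where 18 of 16702 genes did (0.108%), 0 had an unadjusted p under 0.05, against 891 of all genes, and DESeq2 and limma called 0. The median log2 fold change of the members was 0.02, with 19 of 28 above 0, against 48.5% of all genes. Sox10 had the highest at 0.15 (SE 0.08, adjusted p = 0.975), with 68.4 ± 12.1 CPM in males and 62.1 ± 9.20 CPM in females (SD, n = 16 each). Mobp had the lowest at -0.11 (SE 0.08, adjusted p = 0.9995), with 426.5 ± 73.3 CPM in males and 463.4 ± 73.6 CPM in females. Gjb1, the only member on the X chromosome, averaged 22.1 ± 3.63 CPM in males and 21.9 ± 4.02 CPM in females.

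Batches B and A were also compared. Each cage lay within a single batch, so the lanes and the sets of cages on them cannot be told apart. With batch B over batch A, 0 of 28 members passed, where 27 of 16702 genes did (0.162%), and 0 members had an unadjusted p under 0.05, against 1820 of all genes. DESeq2 and limma called 0 members as well. The median was 0.08 with 25 of 28 above 0, against 48.7% of all genes, and Mag had 0.17 (SE 0.09, adjusted p = 0.475). Since the members vary together, these 25 are not separate results. Without the 3 mice of the cage that held mice 28, 29 and 30, the median was -0.009 with 13 above 0, beside 7928 of all 16816 genes of that fit. This cage of batch B was left out after its high values were seen, so a fall of the median was built into the choice.

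The sex difference took opposite signs in the batches, a pattern noticed after the values were seen. In batch B, 3 of 28 members were higher in males, with a median log2 fold change of -0.11, and in batch A 27 of 28 were, with a median of 0.15. Of all genes, 8489 of 16904 were higher in males in batch B and 8011 of 17020 in batch A. The interaction of sex and batch was below 0 for all 28 members, with a median of -0.26, where 51.5% of all genes were above 0. No gene of 16702 passed after adjustment. At an unadjusted p under 0.05 this interaction held 8 members, Cryab, Enpp2, Cldn11, Fa2h, Trf, Gjb1, Cnp and Myrf, and 576 of all genes. Each cage held mice of a single sex and batch, so this interaction compares cages. The test took cage mates as separate mice, and it was not run with cage as a random effect. Cryab had the lowest interaction at -0.44 (SE 0.15, adjusted p = 0.998). It had 68.3, 92.6 and 105.5 CPM in batch B males and 87.2, 95.8 and 145.5 CPM in batch B females. In batch A it had 94.0, 104.1 and 115.5 CPM in males and 70.5, 92.5 and 107.4 CPM in females. The ranges of the sexes overlapped in both batches, and the highest batch B females were the cage mates 28 and 30. Without this cage, 27 of 28 members were higher in males over both batches, with a median of 0.09, 0 past the threshold and 4 with an unadjusted p under 0.05. Over all 16816 genes of that fit, 8013 were higher in males and 1084 had an unadjusted p under 0.05. The cage held females alone and was left out after its high values were seen, so a shift toward males was built into the choice.

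The difference between the sexes in the genotype effect was tested as an interaction. No member and no gene passed, which is 0% of the 16702 genes, and 0 members had an unadjusted p under 0.05, against 277 of all genes, and DESeq2 and limma called 0. Over all mice the members' median interaction was 0.06, with 22 of 28 above 0, against 48.2% of all genes. The members' median was 0.25 with 28 above 0 in batch A and -0.27 with 0 above 0 in batch B. Of all genes, 8045 of 17020 were above 0 in batch A and 8436 of 16904 in batch B. In males the genotype effect had a median of 0.03 with 25 of 28 above 0, and in females -0.03 with 9 above 0. Of all genes, 47.6% were above 0 in males and 50.6% in females. Since batch B held 3 N/- males and 3 N/- females, and batch A 2 N/N females, single mice weigh heavily in these values.

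**Figure D3:**
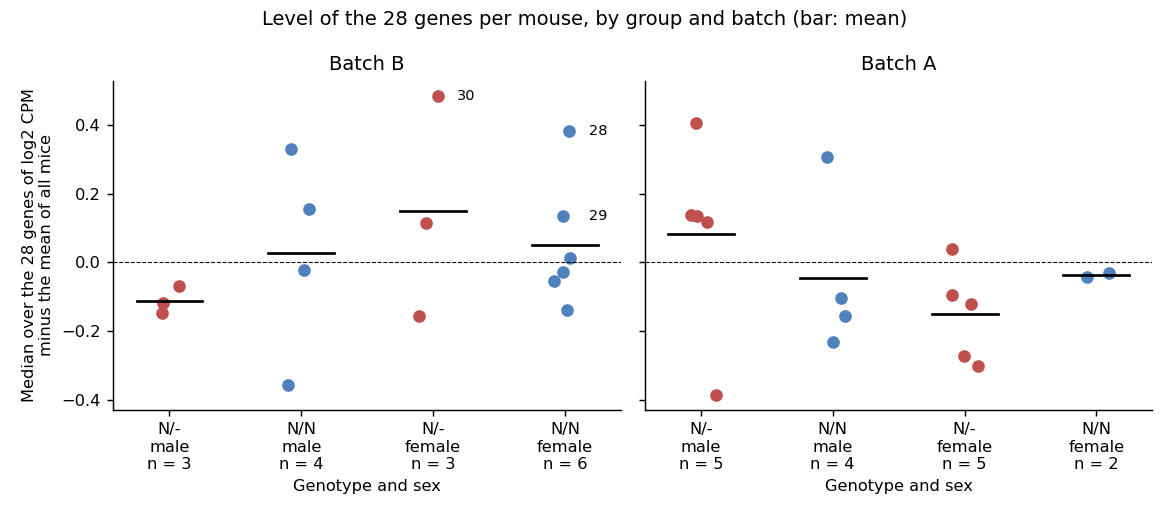
Median over the 28 genes of log2 CPM minus the mean of all mice, 1 point per mouse, by genotype and sex within batch B (left) and batch A (right), with bars at group means and the cage of mice 28, 29 and 30 marked. Groups overlap, and mouse 30 at 0.49 stands above the other N/- females of batch B.

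Across mice the members varied as a block. Mag, an adhesion protein of myelinating cells, served as the gene to which the other 27 were compared, with Pearson's r and Spearman's rho of log2 CPM over 32 mice and two-sided permutation tests adjusted over the 27 genes. All 27 were correlated with Mag, with r of 0.63 to 0.97 (median 0.85) and rho of 0.54 to 0.94, and all passed at an adjusted p under 0.05. Cnp followed Mag most closely, at r = 0.97 and rho = 0.94 (permutation p = 1e-05 for each, the smallest these resamples can give). Gpr37 (r = 0.95), Cldn11 (0.94), Tspan2 (0.94) and Mal (0.92) came next. Cryab was lowest at r = 0.63 (rho = 0.54) and Hapln2 had r = 0.67 (rho = 0.68). These genes share libraries, depth and scaling, which were the same for each mouse. The permutations shuffled single mice without regard to cage, although levels were correlated within cages. The members were listed as oligodendrocyte genes with earlier results of these data known, so passing is no separate support for a block.

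Within batch B r with Mag was 0.49 for Hapln2 to 0.98 for Cnp, and 26 of 27 passed. In batch A it was 0.53 for Cryab to 0.97 for Cnp, and all 27 passed. Leaving out mice 30 and 18, the farthest from the median of Mag, gave r of 0.56 to 0.96. Without the cage of mice 28, 29 and 30 r was 0.46 to 0.96 and all 27 passed. Total counts, mitochondrial share and the level of the cortical list were each compared with Mag too. None of these 3 passed after adjustment over the 3, with r of 0.31 for total counts (permutation p = 0.0845, adjusted p = 0.254), -0.19 for the cortical list (adjusted p = 0.309) and -0.22 for the mitochondrial share (adjusted p = 0.309). By Spearman's rho, total counts had 0.38 (permutation p = 0.0306, adjusted p = 0.0917), and within batches r was 0.16 in batch B and 0.08 in batch A.

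**Figure D4:**
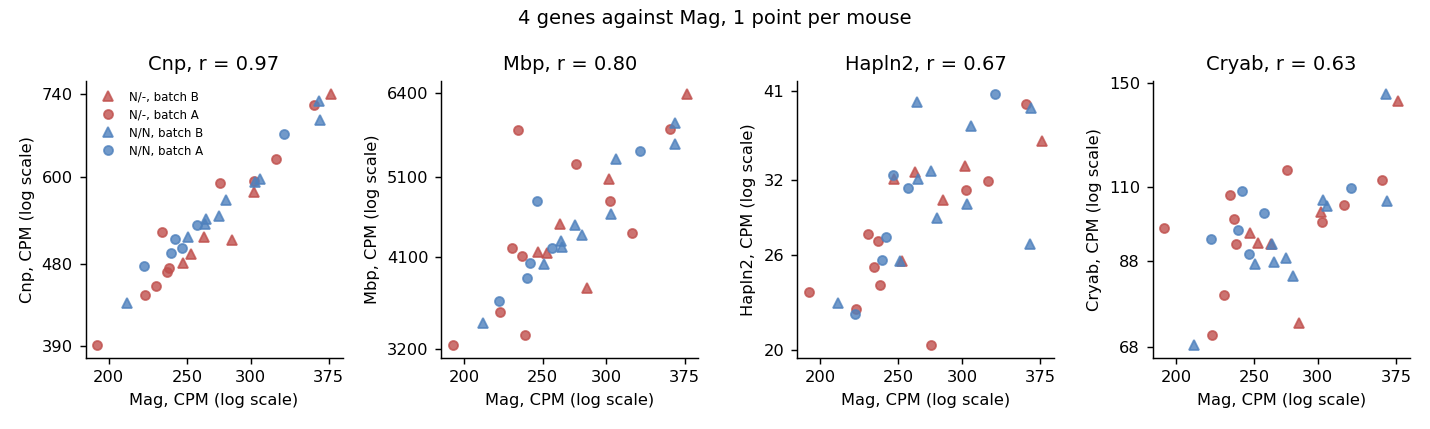
CPM of Cnp, Mbp, Hapln2 and Cryab (vertical, log scale) against CPM of Mag (horizontal, log scale), 1 point per mouse, coloured by genotype and shaped by batch. Cnp lies on a narrow line (r = 0.97), while Hapln2 (r = 0.67) and Cryab (r = 0.63) scatter, and points of both genotypes mix along each cloud.

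The 378 pairs of members had r of 0.27 (Cryab with Hapln2) to 0.98 (Mbp with Plekhb1), with a median of 0.82 and 316 pairs above 0.7. Hapln2 had the lowest median r with the other members at 0.59, followed by Cryab at 0.70 and Apod at 0.74, and Mal the highest at 0.88. Hapln2 parted from the other members in single mice of both genotypes. In mouse 5 (N/-) it had 20.3 CPM, its lowest value, while Mbp was at 5285 CPM there, above its mean of 4524 CPM. In mouse 28 (N/N), high for the other 27 members, Hapln2 had 26.8 CPM, below its mean of 29.9 CPM.

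Within the block, some members leaned to Mbp and others to Mag, a division seen in the values and not tested as such. Of the other 26 members, 12 had a higher r with Mbp and 14 with Mag, and 22 of them leaned the same way in both batches, 11 to each. No minimum difference was set, so small differences count too, such as 0.004 for Lpar1 in batch B. Plekhb1 had r of 0.98 with Mbp and 0.73 with Mag, Bcas1 0.96 and 0.77, and Qdpr 0.93 and 0.75 in the same order. Myrf had r of 0.67 with Mbp and 0.91 with Mag, Enpp2 0.68 and 0.88, Sox10 0.72 and 0.91, and Gpr37 0.82 and 0.95. Mobp, like Mbp a basic protein of compact myelin, had 0.92 with Mbp and 0.77 with Mag. The transcription factor Nkx6-2 was close to both, with 0.80 and 0.82. Closer still were Mal (0.901 and 0.918), Opalin (0.888 and 0.877), Mog (0.922 and 0.915) and Ppp1r14a (0.817 and 0.822). The members that leaned most did so mainly in batch A. For Plekhb1, r with Mbp minus r with Mag was 0.363 in batch A and 0.07 in batch B. For Myrf it was -0.352 and -0.101. Some members went the other way, such as Cryab with 0.043 in batch A and 0.097 in batch B. The division was not computed without mouse 12 of batch A, whose ratio of Mbp to Mag is given below.

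The ratio of Mbp to Mag (CPM over CPM) was 13.3, 16.7 and 24.9 in N/- mice (lowest, median and highest) and 15.2, 16.3 and 19.4 in N/N mice. The highest value was that of mouse 12, an N/- female of batch A, with the fourth highest Mbp and the sixth lowest Mag of all mice. That mouse also had the highest mitochondrial share of counts, 10.4% where the median of all mice was 6.93%. The ratio on the log2 scale was correlated with the mitochondrial share, at r = 0.72 (permutation p = 0.0002, adjusted over 3 measures 0.0006) and rho = 0.43 (permutation p = 0.0146, adjusted 0.0438). Within batch B r was 0.58 (adjusted permutation p = 0.0807) and within batch A 0.73 (adjusted permutation p = 0.0186). By rho the batch A value was 0.53 (adjusted permutation p = 0.104). Without mouse 12 r was 0.43 (adjusted permutation p = 0.0439) and rho 0.37 (adjusted permutation p = 0.118). The r was, without the 2 mice of most extreme mitochondrial share, 0.36 over all mice, -0.15 in batch B and 0.24 in batch A. The size of r thus depended largely on those mice, and no p was computed without them. Total counts (r = -0.27) and the cortical list (r = -0.12) were not past the threshold. The part of RNA quality in this ratio was not tested.

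Genes outside the members were placed by their r with Mag after batch, sex and genotype were removed. On this measure the members had a median of 0.88, with 22 of 27 above 0.8, where 14641 other genes with a mean of at least 1 CPM had a median of -0.03, with 111 above 0.8. Of the 10 most similar of these, 9 are named here in order, Tmem88b (0.95), Itgb4 (0.95), Arsg (0.95), Padi2 (0.94), Myo1d (0.94), Unc5b (0.94), Tmbim1 (0.93), Gab1 (0.93) and Tmem63a (0.93).

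Gene lists of the oligodendrocyte lineage differed in their median r with Mag. Values spread widely within lists, from -0.07 to 0.92 for myelin lipid genes outside the members and -0.24 to 0.83 for newly formed oligodendrocyte genes. Some genes, such as Pllp, Gal3st1 and Olig2, are shared between lists. Other mature oligodendrocyte genes had a median r of 0.86 with Mag, 25 of 36 above 0.8. Myelin lipid genes outside the members had 0.78, 6 of 12 above 0.8, and lineage transcription factors outside the members 0.56, 0 of 9 above 0.8. Newly formed oligodendrocyte genes had a median of 0.34, with 2 of 10 above 0.8 (Sirt2 and Enpp6), and precursor genes 0.19, with 0 of 12 above 0.8. Cholesterol synthesis genes, whose product is a main lipid of myelin, had a median of 0.18, with the highest of the 21 at 0.42.

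Lists of other cell types had medians of 0.28 or less. Astrocyte genes had a median r of 0.28, with Gfap highest at 0.66, and blood genes 0.27, both above the precursor and cholesterol lists. Striatal projection neuron genes had 0.07, endothelial and mural genes 0.02, axoglial junction genes of mainly neuronal origin -0.03, microglia genes -0.10 and cortical neuron genes -0.15. Cntn2, an adhesion gene beside the nodes that oligodendrocytes also express, stood apart from its list at 0.70. All these values come from the same 32 libraries and are given as a description.

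None of the genes of these lists passed the genotype test. The smallest unadjusted p per oligodendrocyte list belonged to Cacng4 among precursor genes, with a log2 fold change of -0.16 (SE 0.06, adjusted p = 0.776), to Zfp536 among transcription factors (0.17, SE 0.09, adjusted p = 0.791), to Rras2 among newly formed oligodendrocyte genes (0.16, SE 0.09, adjusted p = 0.791) and to Josd2 among other mature genes (-0.07, SE 0.04, adjusted p = 0.806). Elovl1, which lengthens fatty acids for myelin lipids, had -0.08 (SE 0.06, adjusted p = 0.862), and Hsd17b7 of cholesterol synthesis 0.10 (SE 0.04, adjusted p = 0.776). All these adjusted p-values are from edgeR's quasi-likelihood test over 16702 genes.

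**Figure D5:**
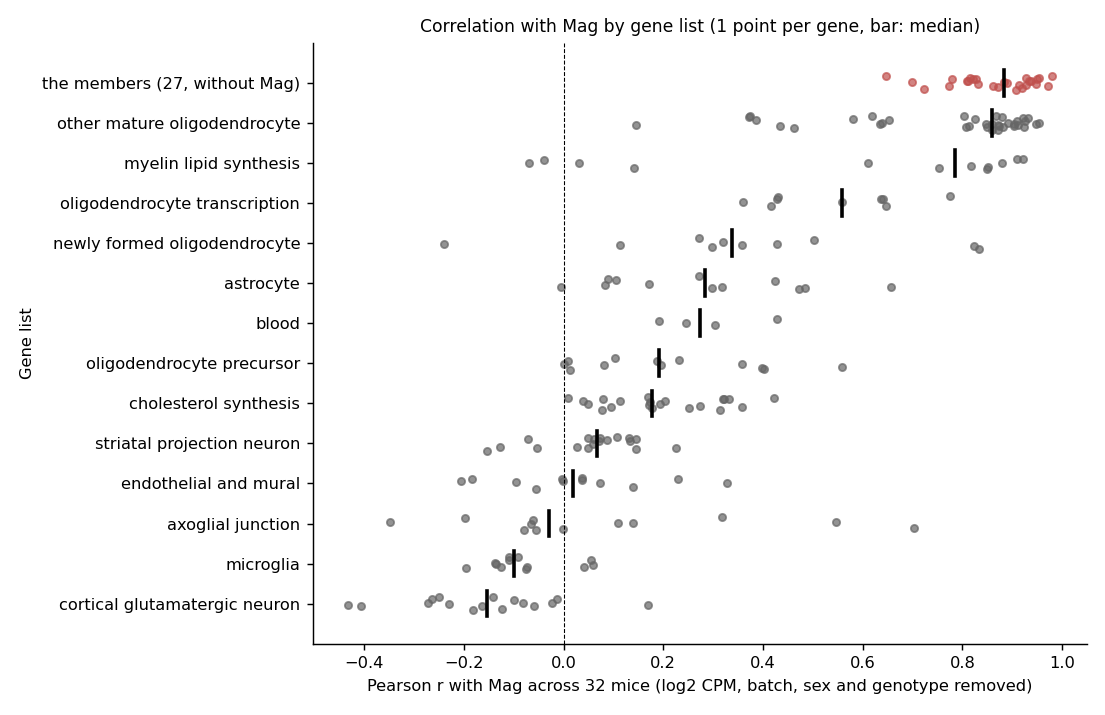
Pearson r with Mag across 32 mice, after batch, sex and genotype were removed, for each gene of each list (points) with the list's median (bar). The members (median 0.88) and other mature oligodendrocyte genes (0.86) are at the top, precursor genes (0.19) lower and cortical neuron genes (-0.15) at the bottom.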

How the data were processed

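The values are raw read counts, which the authors deposited as 1 table for each sequencing run, keyed by Entrez identifier. Per the submitters' processing notes, FastQC 0.11.3, Subread, featureCounts, edgeR 3.8.6, limma 3.22.7 and mm10 were used, while the series text names TopHat and HTSeq. Which pair made the counts is unsettled, and the sources used here do not give the annotation or the use of strand. Without that, reads of overlapping and near-identical genes may be split or shared.

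The 64 runs were summed into 32 mice (28.8 to 33.8 M counts). Symbols and coordinates came from RefSeq (GRCm38.p6, matched to 25275 identifiers), exon lengths from GENCODE M21. Genes were kept by filterByExpr, scaled by TMM and tested with edgeR 4.0.16 (R 4.3.3; robust quasi-likelihood, terms batch, sex and genotype; 4 groups and batch for the interaction), with Benjamini-Hochberg adjustment at 0.05. SEs came from the fold change and F. Log2 CPM used a prior count of 2, and permutation tests 100000 resamples. DESeq2 1.42.0 and limma 3.58.1 (voom, cage as random effect) were alternatives, beside others given in the closing section.

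All members are named, beside the 10 genes most correlated with Mag and at most 2 genes of smallest p per list; 1 such gene is not reported here. Names outside this rule were chosen after their values were seen. Members and lists were chosen with earlier results of these data known. The sex by batch test, the runs without the cage of mice 28, 29 and 30 and the comparison with Mbp were added after seeing the data.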

Additional observations from a re-analysis of the deposited data

Results flagged for a closer look

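In each genotype and sex group of 8 mice, the gap between the highest or lowest mouse and its nearest neighbour was divided by the range of the group and compared with Dixon's critical value of 0.526. Of 112 combinations of a gene and a group, 18 exceeded it, where chance gives about 1 in 20. All 18 were high values of the cage mates 30 and 28, and since members are correlated, these are not 18 separate events.

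Mouse 30 exceeded the critical value among the N/- females for 9 genes. It had 741.4 CPM of Cnp (others 443.6 to 576.6 CPM), 54.7 of Opalin (26.1 to 38.4), 156.2 of Ugt8a (87.6 to 111.4) and 93.0 of Fa2h (54.5 to 70.9). It also had 31.8 CPM of Gjb1 (others 16.6 to 22.9 CPM), 141.0 of Gpr37 (81.1 to 104.5), 81.2 of Sox10 (50.7 to 60.8), 13.1 of Nkx6-2 (6.08 to 9.39) and 16.2 of Ppp1r14a (7.90 to 11.1).

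Mouse 28 exceeded the critical value among the N/N females for 9 genes. It had 5904 CPM of Mbp (others 4028 to 4772 CPM), 134.9 of Mog (100.6 to 114.6), 727.7 of Cnp (500.6 to 592.3) and 29.9 of Gjb1 (18.5 to 23.8). It also had 85.01 CPM of Sox10 (others 58.2 to 67.1 CPM), 363.5 of Bcas1 (229.4 to 269.2), 653.9 of Plekhb1 (434.8 to 512.9), 144.8 of Qdpr (94.4 to 106.4) and 145.5 of Cryab (87.2 to 105.7). The third mouse of this cage, mouse 29, was at no such extreme, with a median over the 28 genes of 0.13 on the log2 scale above the mean of all mice.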

How the results depend on the processing

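The count of members past the threshold was 0 for genotype, sex, batch and the genotype by sex interaction under each alternative run for it. These were size factors in place of TMM, DESeq2, no filter on low counts, no batch term, leaving out mouse 3, mouse 12 or the cage of mice 28, 29 and 30 (added after seeing the data), the cortical list as covariate, cage as a random effect, 1 run per mouse, and each batch alone. The batch comparison was not run without the batch term or within a batch, and the cage block was run for genotype alone. Adjusted p-values of members were 0.739 to 1 for genotype, 0.518 to 1 for sex, 0.347 to 0.999 for batch and 1 for the interaction. The members' median log2 fold change was -0.02 to 0.04 for genotype and -0.11 to 0.15 for sex. It was -0.009 to 0.09 for batch and -0.27 to 0.25 for the interaction. The sign changed between alternatives for genotype, sex and the interaction. For batch, -0.009 came from the run without the cage of mice 28, 29 and 30. A fall of the batch median was built into that choice. Single log2 fold changes moved by less than the SD between mice in 1259 cases and by more in 29. No mouse number is shared between groups, so the numbers pair no mice. Pairing by cage instead, with cage as a block over the 10 cages with both genotypes, gave 0 members past the threshold. The correlation with Mag passed for 27 of 27 members except in batch B alone, with 26. Nkx6-2 and Ppp1r14a, with the lowest counts, had the largest SD between runs (0.17 and 0.12 on the log2 scale).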
